A study of Rattus norvegicus with 30 samples.

Results

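Microglia from the injured hemisphere of 3-month-old male rats, taken 14 days after a stroke, were compared with microglia of 3-month-old sham controls. Of the 30 arrays in the series, 6 enter this comparison: 3 of the injured (ipsilateral) hemisphere and 3 of sham, chosen by the titles of the samples. Stroke was a transient occlusion of the middle cerebral artery for 75 min with a monofilament under isoflurane. The sample characteristics name the strain Wistar Kyoto, whereas the protocols name spontaneously hypertensive rats, and the sources used here do not settle which holds. The isolation of the microglia and the hemisphere taken from sham rats were not given in the sources used here. Arrays of the opposite (contralateral) hemisphere at day 14, of the injured hemisphere at day 3, and of sham and injured day 14 rats aged 12 months serve below to place the comparison. Each group had 3 arrays. Each stroke replicate has an animal code of its own, but nothing in the labels shows that the sham replicates came from different rats. The SEs and p-values use a spread per gene that is pooled within the groups of all 30 arrays. The spread between the sham arrays, which may be technical, is only part of it. P-values against sham may therefore not cover the spread between sham rats.

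Microglia are the resident macrophages of the brain. At rest they survey tissue with P2Y purinergic receptors and the fractalkine receptor Cx3cr1. After injury they engulf debris and dying cells, digest it in lysosomes and export the lipid that this releases, largely as cholesterol bound to apolipoprotein E. A state described in several disease models, often called disease-associated, combines high levels of genes for these tasks (Gpnmb, Spp1, Lgals3, Clec7a, Axl, Apoe) with lower levels of resting-state genes.

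The sham arrays carry another number in their sample codes than the day 14 arrays of 3-month rats. What it stands for was not given in the sources used here, so in this comparison code number and treatment cannot be told apart. The spread of values over an array (SD) was 1.97 to 2.0 on the sham arrays and 1.90 to 1.93 on the injured arrays, although the medians were close, at 5.13 to 5.16 and 5.15 to 5.2. Each difference below was therefore computed on the deposited log2 values and again after cyclic loess normalization over all 30 arrays, which fits a smooth curve between arrays and removes differences that depend on the level alone. Pearson's r across probe sets was 0.993 to 0.995 between sham arrays, 0.991 to 0.993 between injured arrays and 0.974 to 0.982 between the groups.

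Of 11675 genes tested with limma, 1287 (11%) were called higher and 2729 (23.4%) lower in the injured hemisphere at a Benjamini-Hochberg adjusted p below 0.05. After cyclic loess the counts were 1698 (14.5%) higher and 2004 (17.2%) lower, so that the share of higher genes among all calls moved from 32.05% to 45.87%. On both scales 1142 genes were higher and 1908 lower, and 0 genes were called in opposite directions. The change depended on the level. Among the 2335 genes with the highest mean signal the median change was -0.23 log2 units on the deposited values and -0.05 after cyclic loess, whereas among the 2335 lowest it was 0.05 and -0.01. Over all genes the median was -0.04 and -0.01. Changes of single genes below are on the deposited values unless cyclic loess is named, and calls that depend on the scale are named only in part. The shares of higher and lower genes given above are the background for each list count below. The 3 injured arrays lay wholly above the 3 sham arrays for 2004 genes (17.2%) and wholly below for 3425 (29.3%).

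**Figure D1:**
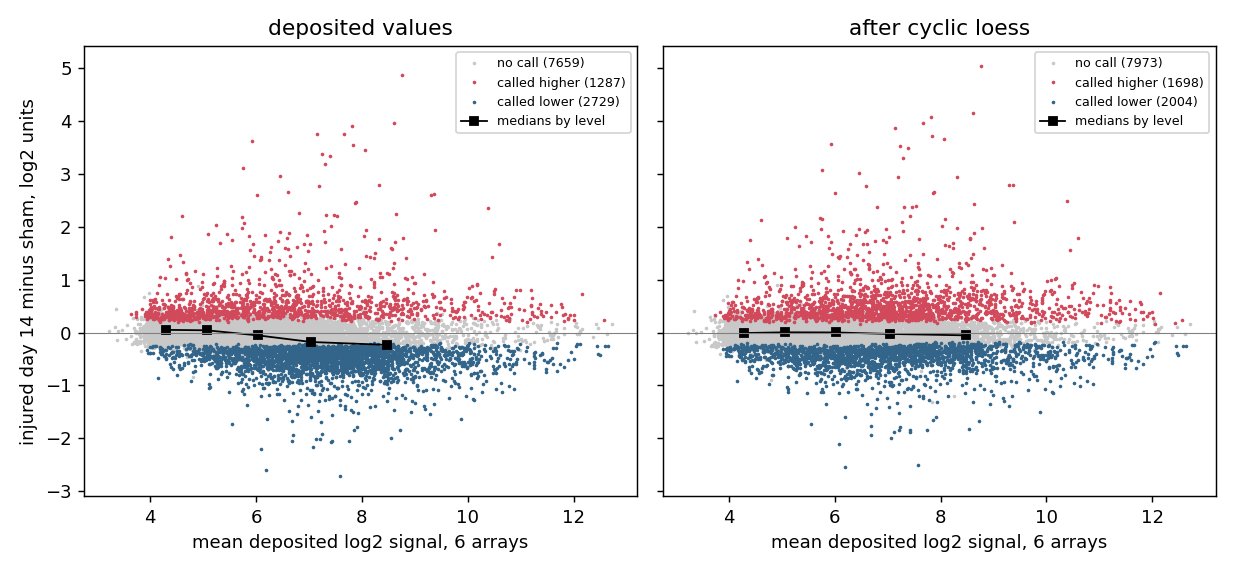
Each point is 1 of 11675 genes; the x axis is the mean deposited log2 signal over the 6 arrays and the y axis the injured day 14 minus sham difference in log2 units, on the deposited values (left) and after cyclic loess (right). Black squares are medians of 5 equal groups of genes by level. They fall to -0.23 at the bright end on the left and stay between -0.05 and 0.01 on the right. Called genes at least 2-fold higher number 141 on the left and 163 on the right, and those at least 2-fold lower 125 and 80.

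Gpnmb, Lgals3 and Spp1 each rose by more than 3 log2 units. Gpnmb, a transmembrane glycoprotein of phagocytic macrophages, read 6.29, 6.52 and 6.17 on the sham arrays and 11.23, 11.28 and 11.08 on the injured arrays. The groups were far apart, and the difference of 4.87 ± 0.21 (SE) log2 units was a 29.3-fold rise (adjusted p = 3.44e-16). Lgals3, which encodes the galactoside-binding lectin galectin-3, read 6.57, 6.95 and 6.38 in sham and 10.51, 10.70 and 10.56 in the injured hemisphere. It rose by 3.96 ± 0.23, or 15.6-fold. Spp1, the secreted matrix protein osteopontin, read 5.75, 5.84 and 5.77 in sham and 9.08, 9.99 and 9.57 after injury. Its injured arrays spread over almost 1 log2 unit, yet all lay above the sham arrays, with a rise of 3.76 ± 0.28.

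Receptors that recognise debris and dying cells moved unequally. Axl, a receptor tyrosine kinase that binds phosphatidylserine through the bridging protein Gas6, read 5.84, 5.95 and 5.79 in sham and 9.82, 9.84 and 9.64 after injury, a rise of 3.91 ± 0.18 (15-fold). Gas6 itself rose by 0.55. Mertk, the related receptor of resting microglia, fell by 0.92. Clec7a, the beta-glucan receptor dectin-1, rose by 3.54 ± 0.22, with sham arrays at 5.87 to 6.27 and injured arrays at 9.48 to 9.75. Of the 21 tested genes for phagocytic receptors and their ITAM signalling, 4 rose and 9 fell on both scales. The 4 that rose were Axl, Clec7a, Trem1 and Gas6, and the 9 that fell included the Fc receptors Fcgr3a (-0.71) and Fcgr1a (-0.64), the inhibitory receptor Havcr2 (-1.23) and the phosphatase Inpp5d (-0.76). Trem2 (-0.05), Tyrobp (-0.05), Fcer1g (-0.03) and Syk (-0.18) were not called on either scale. Of these, Trem2 and Tyrobp are also in the disease-associated list below. The median of the list was -0.18 on the deposited values and -0.02 after cyclic loess.

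Of 32 tested disease-associated genes, 19 rose and 4 fell, and after cyclic loess 21 rose and 3 fell. Their median change was 0.69 (0.75 after cyclic loess), against -0.04 (-0.01) over all genes. Apoc1, a small apolipoprotein, rose by 3.76 ± 0.37. Igf1, an insulin-like growth factor, read 7.98, 8.01 and 8.02 in sham and 10.56, 10.71 and 10.54 after injury, a 6.06-fold rise. Cd68, a lysosomal membrane glycoprotein, read 9.31, 9.26 and 9.03 in sham and 11.64, 11.53 and 11.54 after injury. Its rise of 2.37 ± 0.12 was large for a gene already bright in sham. The 4 that fell were the chemokines Ccl6, Ccl4 (-0.41) and Ccl3 (-0.26) and the protease Ctsl (-0.48). The fall of Ccl6 (-0.92) was lost after cyclic loess (-0.72, adjusted p = 0.0816), after quantile normalization, and without injured replicate 3 (-0.80), sham replicate 1 (-0.82) or sham replicate 2 (-0.90).

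**Figure D2:**
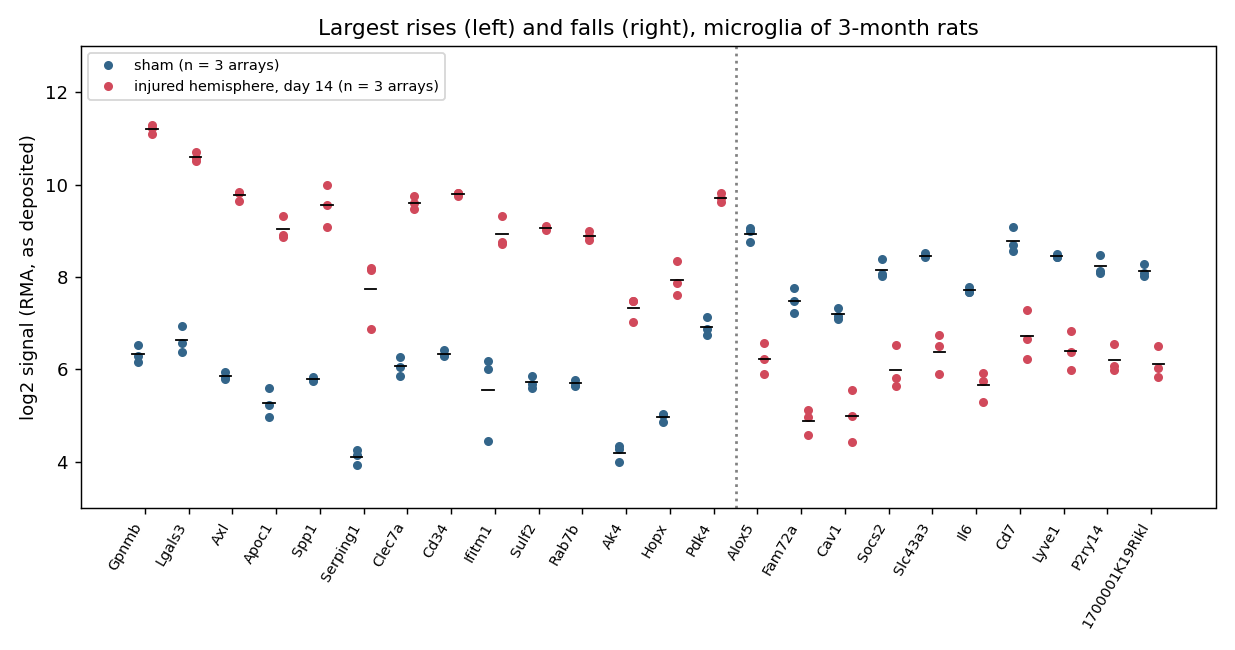
Deposited log2 signal of the 14 genes with the largest rises (left of the dotted line) and the 10 with the largest falls (right), with 1 point per array (3 sham, 3 injured day 14) and a bar at each group mean. The groups do not overlap for any of these genes, which the selection required; within-group spread is widest for Ifitm1 in sham (4.46 to 6.18) and for Serping1 in the injured hemisphere (6.87 to 8.20).

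Several of the largest rises lie outside that list. Cd34, a sialomucin best known from blood stem cells and vessels, read 6.43, 6.31 and 6.28 in sham and 9.81, 9.83 and 9.74 after injury, a rise of 3.46 ± 0.15 with little spread in either group. Ifitm1, an interferon-induced membrane protein, rose by 3.39 ± 0.41, although 1 of its sham arrays, at 4.46, stood well below the others. Sulf2, an extracellular heparan sulfatase, rose by 3.35 ± 0.20. Rab7b, a small GTPase of late endosomes, rose by 3.20 ± 0.17. Hopx, a small homeodomain protein, rose by 2.97 ± 0.31. Ak4, a mitochondrial adenylate kinase, read 3.98, 4.28 and 4.33 in sham, near the dim end of the arrays, and 7.02, 7.47 and 7.48 after injury.

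More than 10 of the genes that carry and export lipid rose, and 12 that make or regulate sterols fell. Of 20 tested genes for lipid export and handling, 11 rose on both scales. On the deposited values 3 others fell (Npc1, Lipa and Mylip, -0.34 to -0.32), and after cyclic loess 0 did by limma's adjusted p, with 2 members lower at an unadjusted p below 0.05. The list's median change was 0.46 (0.47 after cyclic loess). Abca1, which pumps cholesterol out of the cell onto apolipoproteins, read 7.94, 7.78 and 7.93 in sham and 9.64, 9.84 and 9.56 after injury, a rise of 1.8 ± 0.08. Abcg1, its partner in export, rose by 0.92. Soat1, which esterifies cholesterol for storage, rose by 1.5, and Plin2, a coat protein of lipid droplets, by 1.13.

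The carrier Apoe was already among the brightest genes in sham, at 11.75, 11.73 and 11.88, and read 12.53, 12.57 and 12.42 after injury, a rise of 0.72 ± 0.09 without overlap. Fabp5, a fatty acid binding protein, rose by 1.85 ± 0.17. Fabp4 and Lpl were dim in sham. For Fabp4, another carrier of fatty acids, all 3 sham arrays lay at or below the 30th percentile of their array, so only a bound holds: it rose by at least 1.53 (fitted 2.20). Lpl, the lipase that frees fatty acids from lipoproteins, rose by at least 1.13 (fitted 1.81), with injured arrays at 5.32, 5.55 and 5.05.

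Of 23 tested genes of sterol and fatty acid synthesis, 12 fell and 2 rose, and after cyclic loess 13 fell and 2 rose. The list's median was -0.48 (-0.37 after cyclic loess). All 12 that fell serve the isoprenoid and cholesterol branch, its transport or its regulation. Idi1, the isomerase that supplies isoprenoid units, read 8.23, 8.23 and 8.14 in sham and 6.86, 5.71 and 6.26 after injury. The injured arrays spread over more than 1 log2 unit and stayed below all sham arrays, with a fall of 1.92 ± 0.21 (3.79-fold). Msmo1, a sterol oxidase, fell by 1.85 ± 0.19, and Cyp51, the lanosterol demethylase, by 1.47 ± 0.15. Sqle, the squalene epoxidase that is a control point of the pathway, read 6.42, 6.60 and 6.54 in sham and 5.45, 5.01 and 4.97 after injury. Insig1, which holds the sterol sensor in the endoplasmic reticulum, fell by 1.05, and Srebf2, the transcription factor that drives the pathway, by 0.48.

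The 2 genes that rose belong to fatty acid synthesis, of which Fasn (0.01) and Acly (-0.02) were not called on either scale. Acaca, the acetyl-CoA carboxylase that commits carbon to fatty acids, read 5.90, 6.02 and 5.84 in sham and 7.30, 7.42 and 7.37 after injury, a rise of 1.44 ± 0.11. Scd, a desaturase, changed by 0.42 with overlapping arrays, and its call was lost without injured replicate 2 or sham replicate 3, when 1 member of the list rose.

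**Figure D3:**
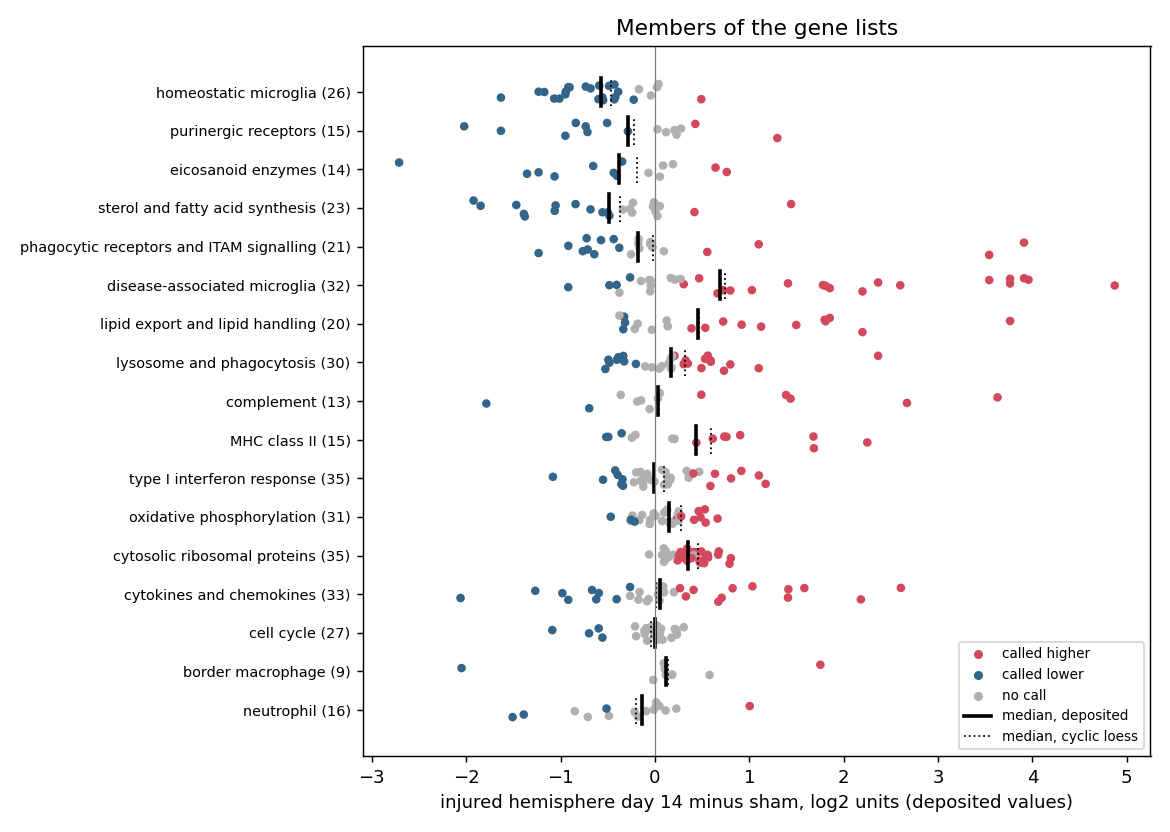
Change of each tested member (points; numbers of tested genes in brackets) of 17 gene lists, injured day 14 minus sham in log2 units on the deposited values, coloured by call. Solid bars are list medians on the deposited values and dotted bars after cyclic loess; resting-state and sterol lists lie to the left on both scales (medians -0.57 and -0.48), disease-associated and lipid export lists to the right (0.69 and 0.46), and the interferon median changes sign (0.00 and 0.09).

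Resting-state genes fell almost throughout. Of 26 tested homeostatic genes, 21 fell and 1 rose on either scale, with a median of -0.57 (-0.46 after cyclic loess). Tmem119, a membrane protein used to mark microglia, read 8.14, 8.22 and 8.46 in sham and 7.44, 6.77 and 7.09 after injury, a 2.25-fold fall. P2ry12, the ADP receptor that guides microglial processes, read 12.06, 12.02 and 12.08 in sham and 11.50, 11.09 and 11.37 after injury. Its fall of 0.73 ± 0.11 was 1.66-fold, and the groups did not overlap. Cx3cr1 fell by 0.59 ± 0.08 and Gpr34, a lysophosphatidylserine receptor, by 1.07 ± 0.13. The transcription factors Sall1, Mef2a and Maf fell by 0.68, 0.56 and 0.49, whereas Irf8 (0.02) and Spi1 (-0.17) were not called on either scale. Itgam, the complement receptor subunit CD11b, was the member that rose (0.49).

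The purinergic system showed both directions. Of 15 tested genes 8 fell and 2 rose (7 and 3 after cyclic loess), with a median of -0.29 (-0.23). P2ry13, an ADP receptor, read 10.78, 10.59 and 10.69 in sham and 9.40, 8.70 and 9.06 after injury, a fall of 1.63 ± 0.14. P2ry14, the UDP-glucose receptor, fell by 2.02 ± 0.15. Entpd1, the ectoenzyme CD39 that degrades ATP, fell by 0.95, and the ATP-gated channel P2rx7 by 0.84. P2rx4, another ATP-gated channel of microglia, rose by 1.30 ± 0.11.

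Alox5, the 5-lipoxygenase that starts leukotriene synthesis, had the largest fall of all genes that met the selection. Sham arrays read 9.0, 8.75 and 9.05 and injured arrays 6.56, 5.89 and 6.21, a fall of 2.71 ± 0.15 (6.55-fold). Further steps of the pathway fell too: Alox5ap by 0.65, Ltc4s, the leukotriene C4 synthase, by 1.23 and Pla2g4a, which releases arachidonic acid, by 1.06. Ptgs1, the constitutive cyclooxygenase, fell by 1.35, whereas the inducible Ptgs2 rose by 0.64, with limma's adjusted p at 0.0382. The other enzyme that rose, Ptgds (0.76), had an adjusted p of 0.000308, so the call of Ptgs2 was the nearer to the threshold. Of 14 tested eicosanoid enzymes 8 fell and 2 rose, and after cyclic loess 5 fell and 2 rose; the calls lost were Ptges3, Lta4h and Tbxas1. Without any 1 of 5 arrays (all but injured replicate 1) 1 enzyme, not 2, rose.

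Other large falls were spread over functions. Cav1, the coat protein of caveolae, fell by 2.21 ± 0.23, and Socs2, an inhibitor of cytokine and growth hormone signalling, by 2.17 ± 0.17. Slc43a3, a purine nucleobase transporter, fell by 2.08 ± 0.18 and Cd7, an immunoglobulin-family receptor, by 2.05 ± 0.25. Fam72a and 1700001K19Rikl fell by 2.59 ± 0.22 and 2.01 ± 0.18.

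About as many MHC class II genes rose as did not, and the sham arrays spread widely. Of 15 tested MHC class II genes 8 rose and 3 fell on either scale, with a median of 0.44 (0.60 after cyclic loess). RT1-Da, a class II alpha chain, read 7.66, 8.03 and 6.85 in sham and 10.03, 9.75 and 9.52 after injury. Sham replicate 3 was well below the other sham arrays, and the rise was 2.25 ± 0.57 (adjusted p = 0.00232). Cd74, the invariant chain, rose by 1.69 ± 0.43 and RT1-Ba by 1.68 ± 0.40, again with sham replicate 3 lowest (9.24 and 5.57). RT1-Db1 rose by 0.90 ± 0.32 but did not pass without injured replicate 1, 2 or 3 or sham replicate 1 or 3 (0.83 to 0.91, adjusted p = 0.0502 to 0.0822). The 3 that fell were RT1-DMa (-0.52) and RT1-DMb (-0.35), which load peptide, and the protease Ctss (-0.49). RT1 genes have closely related copies, and cross-hybridisation between their probe sets was not examined.

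For MHC class I, 1 of 16 tested genes rose and 3 fell, against 5 and 2 after cyclic loess, and the list's median was 0.05 (0.12). The 1 that rose, RT1-T24-4 (0.35), did not pass without injured replicate 2 (0.34) or 3 (0.28) or sham replicate 1 (0.37) or 3 (0.22). The chaperones Calr and Pdia3 fell by 0.48 and 0.42. The call of Erap1 (-0.34) was lost after cyclic loess (-0.14, adjusted p = 0.185).

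Interferon-induced genes gave calls in both directions. Of 35 tested, 7 rose and 7 fell on the deposited values, with a median of 0.00, and 12 rose and 2 fell after cyclic loess, with a median of 0.09. The 2 falls left were Oasl2 and Ifi47. Over all genes tested 11% rose and 23.4% fell, and after cyclic loess 14.5% and 17.2%. Falls in the list were thus no more frequent than over all genes on either scale, whereas rises were more frequent. On the deposited values 4 fell without injured replicate 3 and 3 fell without sham replicate 2. To show what these genes share, their promoter windows from RefSeq (build GRCr8) were searched on both strands for TTTCNNTTT, the core of the interferon-stimulated response element, the site through which interferon signals reach DNA. Windows were found for 26 of the 35 genes, and 17 of them (65.38%) held the core, as did 8.232% of the windows of 9658 tested genes and 11.78% of all 33469 windows. It was in 3 of 5 windows of genes called higher and in 6 of 7 of genes called lower on the deposited values. Among those called lower, only Oasl2 and Ifi47 were also called lower after cyclic loess. Stretches around the start site of 2 genes that rose and 1 that fell on both scales follow, with the core and its complement in capitals. They are shown because the core occurs close to the start in genes that moved in either direction.
Irf7 (rose; chr1:205800004-205800123, minus strand): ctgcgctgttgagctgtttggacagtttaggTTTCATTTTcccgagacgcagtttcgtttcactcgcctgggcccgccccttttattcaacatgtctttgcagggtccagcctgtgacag
Oas1a (rose; chr12:41330366-41330485, plus strand): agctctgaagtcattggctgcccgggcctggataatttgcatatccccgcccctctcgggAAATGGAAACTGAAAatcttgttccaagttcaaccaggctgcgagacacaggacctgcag
Ifi47 (fell; chr10:33798644-33798763, plus strand): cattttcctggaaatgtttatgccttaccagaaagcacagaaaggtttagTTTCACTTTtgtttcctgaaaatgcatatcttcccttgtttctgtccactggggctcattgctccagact
In Oas1a 2 overlapping matches form 1 capital run. A match is a description of the letters in the window, not of a bound site. The same search found TCACNCCAC, a sterol regulatory element, in 0 of 17 windows of sterol genes, 1.117% of all windows and 1.222% of those of tested genes. At such low shares, 0 matches in 17 windows cannot show that these genes lack the element, and other forms of it were not searched. CACGTGAC, an element of lysosomal genes, was in 4 of 26 windows of lysosomal genes, 1.852% of all windows and 3.448% of those of tested genes.

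Irf7, the transcription factor that amplifies the interferon response, read 5.89, 6.13 and 5.67 in sham and 6.65, 7.19 and 6.60 after injury, a rise of 0.92 ± 0.14 without overlap. Oas1a, an antiviral synthetase, read 4.93, 5.36 and 4.66 in sham and 6.06, 6.32 and 6.10 after injury. Mx1, an antiviral GTPase, rose by 1.10 ± 0.21. Oasl2, a relative of Oas1a, read 7.47, 7.60 and 7.04 in sham and 6.37, 6.16 and 6.33 after injury. Members of 1 gene family thus moved in opposite directions, with no overlap in either. Ifi47, an interferon-induced GTPase, fell by 0.55.

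Among complement genes the secreted components C3, Cfd and C1r, the regulator Serping1 and the receptor subunit Itgam rose. Serping1, the C1 inhibitor, read 3.94, 4.14 and 4.25 in sham and 8.20, 6.87 and 8.15 after injury. Injured replicate 2 was more than 1 log2 unit below the others, and the rise was 3.63 ± 0.21. Of the 3 sham arrays 2 lay at or below the 30th percentile of their array, so the sham level is near the floor and no fold is given. C3, the central component, read 9.61, 9.73 and 9.86 in sham and 11.28, 11.03 and 11.19 after injury, a rise of 1.44 ± 0.10. Cfd, factor D of the alternative pathway, rose by 2.67 ± 0.24, C1r, a protease of the classical pathway, by 1.39, and Itgam by 0.49. Properdin (Cfp), which stabilises the alternative convertase, fell by 1.79 ± 0.17, and the anaphylatoxin receptor C3ar1 by 0.70. In all, 5 of 13 tested genes rose and 2 fell on either scale, with a median of 0.03 (0.05).

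Cytokines moved in both directions. Of 33 tested genes 12 rose and 9 fell on either scale, and the median was 0.05 (0.02 after cyclic loess). Over all genes tested 11% rose and 23.4% fell, and after cyclic loess 14.5% and 17.2%. Il6, the pleiotropic inflammatory cytokine, read 7.68, 7.68 and 7.78 in sham and 5.75, 5.28 and 5.92 after injury, a 4.17-fold fall. Il1a read 10.88, 10.69 and 10.70 in sham and 9.47, 9.80 and 9.19 after injury, and Tnf fell by 0.98 ± 0.16. Il1rn, the antagonist that blocks the interleukin-1 receptor, read 4.82, 4.82 and 4.48 in sham and 7.11, 7.53 and 7.30 after injury, a rise of 2.61 ± 0.30. The chemokines Cxcl13 and Cxcl16 rose by 2.18 ± 0.26 and 1.58 ± 0.10.

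Il1b read 8.39, 8.35 and 8.20 in sham and 8.89, 9.61 and 8.57 after injury. The arrays did not overlap, but the rise of 0.71 ± 0.25 (adjusted p = 0.0267) rested on single arrays. Without injured replicate 2 it was 0.42 (adjusted p = 0.241), without sham replicate 2 it was 0.73 (adjusted p = 0.0525) and without sham replicate 3 it was 0.65 (adjusted p = 0.0823). With only the arrays of 3-month rats in the fit the adjusted p was 0.0761. Cytokines with a rise between these were Csf1 (1.41), which sustains microglia, Cxcl1 (1.41), Lif (1.03) and Osm (0.82).

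Growth factor and matrix genes rose more often than they fell. Of 19 tested growth factor genes 10 rose and 3 fell (8 and 3 after cyclic loess, where the calls of Tgfa and Hgf were lost), with a median of 0.30 on either scale. Beside Spp1 and Igf1 these included Vegfa (1.03 ± 0.23) and Grn, the lysosomal progranulin (0.53). Hbegf fell by 0.92 ± 0.17. Plau, the urokinase that activates plasminogen, read 7.97, 8.01 and 8.15 in sham and 10.70, 10.89 and 10.43 after injury. Timp1, an inhibitor of metalloproteinases, rose by 1.55 ± 0.15. Of 17 tested matrix genes 6 rose and 1, Mmp2 (-0.51), fell on either scale, with a median of 0.19. Without injured replicate 2, 3 matrix genes rose, and Mmp12 (1.11, with 2 of 3 sham arrays at or below the 30th percentile) did not pass (1.00, adjusted p = 0.0596).

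Lysosomal genes changed in both directions. Of 30 tested, 13 rose and 8 fell, against 18 and 5 after cyclic loess, and the median was 0.17 (0.31). Over all genes tested 11% rose and 23.4% fell, and after cyclic loess 14.5% and 17.2%. Falls in the list were thus near the share over all genes, whereas rises were more frequent. Rises on both scales included Cd68, the proteases Ctsk (1.10) and Ctsd (0.80), the glycosidase Hexa (0.73) and the proton pump subunits Atp6v1a (0.59) and Atp6v0c (0.56). Falls on both scales included the membrane protein Lamp2 (-0.53) and the proteases Ctss (-0.49), Ctsl (-0.48) and Ctsh (-0.40). The calls of Npc1, Lipa and Laptm5 were lost after cyclic loess.

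Most ribosomal protein genes rose. Of 35 tested 27 rose and 0 fell, and after cyclic loess 31 rose and 0 fell; by limma's unadjusted p below 0.05, too, 0 fell on either scale. The median was 0.35 (0.46), against -0.04 (-0.01) over all genes. Rps15, Rplp0 and Rps27 had the largest rises, 0.80, 0.79 and 0.68. Genes of oxidative phosphorylation gave 9 higher and 3 lower of 31 on the deposited values and 19 higher and 1 lower after cyclic loess, with medians of 0.15 and 0.28. Cox4i1, a subunit of cytochrome oxidase, rose by 0.66 ± 0.09, while cytochrome c (Cycs) fell by 0.47. Without injured replicate 3 or without sham replicate 2, 1 member fell.

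Regulators of fuel choice had the largest changes in the glycolysis list. Pdk4, the kinase that blocks pyruvate entry to the citrate cycle, read 6.75, 6.87 and 7.13 in sham and 9.62, 9.82 and 9.70 after injury, a rise of 2.80 ± 0.18, while its relatives Pdk1 and Pdk3 fell by 0.64 and 0.40. Pfkfb3, which makes the activator of phosphofructokinase, rose by 1.46 ± 0.23. In the list of 23, 6 rose and 5 fell (8 and 4 after cyclic loess), with a median of 0.06 (0.22). Iron and antioxidant genes gave 5 higher and 5 lower of 24 (9 and 5 after cyclic loess), with a median of 0.08 (0.15). The transferrin receptor Tfrc fell by 0.84, the phagosomal metal transporter Slc11a1 by 0.77 and the iron exporter Slc40a1 by 0.65. The largest change upward in the list was 0.57. Over all genes tested 11% rose and 23.4% fell, and after cyclic loess 14.5% and 17.2%. The falls in this list were thus near the share over all genes. Without injured replicate 1 or sham replicate 3, 3 iron and antioxidant genes rose, and without injured replicate 2, 2 did.

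Immediate early genes gave 5 higher and 8 lower of 26, and 7 higher and 4 lower after cyclic loess, with medians of -0.13 and -0.01. Gadd45b and Nr4a1 rose by 1.31 ± 0.17 and 0.96 ± 0.16. Fos, Jun, Zfp36 and Ier3 fell on both scales, by 0.47, 0.30, 0.40 and 0.57. The call of Klf2 (-0.59) was lost after cyclic loess (-0.42, adjusted p = 0.068), and Dusp2 (0.68) did not pass without injured replicate 1 or 2 or sham replicate 3 (0.59 to 0.64). Without injured replicate 2, 3 of the genes rose and 5 fell, and without sham replicate 3, 3 rose and 4 fell.

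No gene of the cell cycle list rose: of 27 tested 0 rose and 4 fell on either scale, with a median of 0.00 (-0.04), by limma with adjusted p-values. Of the 27, 6 (Cdk1, Bub1, Bub1b, Cenpa, Kif11 and Kif20a) lay at or below the 30th percentile on all 6 arrays and entered the test through other arrays of the series, so their values here lie at the floor of the arrays. At an unadjusted p below 0.05, 2 members were higher on the deposited values and 0 after cyclic loess. Without injured replicate 1, 1 rose. Cyclin D1 (Ccnd1) fell by 1.09 ± 0.10 and Pcna, the DNA polymerase clamp, by 0.60 ± 0.10. Top2a, a topoisomerase of dividing cells, read 4.75, 4.31 and 4.5 in sham and 4.75, 4.68 and 4.82 after injury, a difference of 0.23 ± 0.20 (adjusted p = 0.395).

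Markers of the labelled cell type and of other cells were read in the same arrays. In bulk RNA, fewer cells of a type and less RNA per cell cannot be told apart. Of 10 listed microglial markers 9 were tested and 8 fell on both scales; the mean level of the list was 10.11 to 10.19 over the sham arrays and 9.22 to 9.56 over the injured arrays. Sall1 read 10.80 to 10.88 in sham and 10.11 to 10.21 after injury, and Csf1r 11.52 to 11.65 and 11.09 to 11.26. Olfml3, the marker that did not fall, was at the dim end of the arrays in both groups (3.98 to 4.26 in sham).

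The monocyte and macrophage list gave 7 higher and 3 lower of 16 tested (7 and 2 after cyclic loess), with a median of 0.51 (0.57) and a mean level of 5.83 to 6.03 in sham and 6.62 to 6.78 after injury. Those higher were Lgals3, S100a11 (2.22), Anxa2 (1.85), Vim (1.46), Cd44 (1.22), Gda and F10. The rise of S100a11 did not pass without sham replicate 3 (1.55, adjusted p = 0.0512). The monocyte receptor Ccr2 read 5.24 to 5.32 in sham and 4.88 to 4.96 after injury, a difference of -0.35 (adjusted p = 0.235), and Plac8 (-0.74) and Itga4 (-0.62) fell. The part of monocyte-derived cells in the changes above was not tested.

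Of 9 tested markers of border macrophages 1 rose and 1 fell (2 and 1 after cyclic loess), with a median of 0.12 (0.14) and a mean level of 5.55 to 5.66 in sham and 5.65 to 5.83 after injury. Lyve1, a hyaluronan receptor, read 8.42, 8.44 and 8.49 in sham and 6.82, 6.0 and 6.38 after injury, a fall of 2.05 ± 0.28. Siglec1, the sialic acid receptor CD169, rose by 1.75 ± 0.23. The scavenger receptor Mrc1 read 5.18, 5.34 and 5.11 in sham and 5.17, 5.47 and 5.35 after injury, a difference of 0.12 ± 0.34 (adjusted p = 0.833). Cd163, the haemoglobin scavenger receptor, differed by 0.10 ± 0.26 (adjusted p = 0.799).

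The alternative activation list, which shares Lyve1 and Il1rn with lists above, gave 3 higher (Il1rn, Vegfa and Olr1) and 2 lower (Lyve1 and Il4r) of 16 on the deposited values, with a median of 0.11 (0.07 after cyclic loess). After cyclic loess the call of Il4r was lost and Il10 was called lower. Without any 1 of 5 arrays (all but sham replicate 2), 1 member fell.

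The neutrophil genes S100a8 and S100a9 varied widely among the sham arrays. S100a8 read 9.02, 9.40 and 7.34 in sham and 7.14, 7.30 and 6.80 after injury; S100a9 read 9.38, 9.81 and 7.63 in sham and 7.51, 8.03 and 7.11 after injury. Sham replicate 3 lay near the injured arrays for both. Their differences of -1.51 ± 0.51 and -1.39 ± 0.52 passed on the deposited values and did not after cyclic loess (adjusted p = 0.0584 and 0.0889). S100a8 did not pass without injured replicate 3 (-1.37), sham replicate 1 (-1.29) or sham replicate 2 (-1.10), and S100a9 did not pass without injured replicate 1 (-1.37) or 3 (-1.17) or sham replicate 1 (-1.17) or 2 (-0.95). Of 16 tested neutrophil genes 3 fell and 1, Mmp8 (1.00, with 2 of 3 sham arrays at or below the 30th percentile), rose (1 and 1 after cyclic loess), with a median of -0.14 (-0.20) and mean levels of 5.15 to 5.74 in sham and 5.09 to 5.29 after injury. Retnlg (-0.51) did not pass without injured replicate 1 or 3 or sham replicate 1 or 2 (-0.53 to -0.36). Without injured replicate 3, sham replicate 1 or sham replicate 2, 0 members fell by limma's adjusted p, with 2, 2 and 0 lower at an unadjusted p below 0.05, and without injured replicate 1, 1 fell and 2 rose.

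Among 12 tested T and NK cell genes 5 rose and 0 fell (4 and 0 after cyclic loess; 1 was lower at limma's unadjusted p below 0.05 on either scale), with a median of 0.21 (0.16) and mean levels of 4.90 to 4.94 and 5.16 to 5.31. Cd8a read 4.71, 4.75 and 4.72 in sham and 5.27, 6.07 and 5.57 after injury, and Cd8b rose by at least 0.83 (fitted 1.26). Cd4, which rat macrophages also carry, rose by 0.79 ± 0.13. The T cell receptor component Cd3d stayed at or below the 30th percentile on all 6 arrays, and Cd3e (0.26) was not called after cyclic loess. Zap70, a T cell receptor kinase, rose by 0.33 and lost its call without sham replicate 1 (0.25, adjusted p = 0.0626) and after cyclic loess over the 6 arrays alone (0.27, adjusted p = 0.0692). Without sham replicate 1, 3 of these genes rose, and without sham replicate 2, 1 fell.

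Of 3 tested B cell genes 2 rose and 1 fell on either scale. Cd22, a sialic acid binding receptor also found on microglia, read 4.54, 4.57 and 4.33 in sham and 6.21, 6.04 and 6.26 after injury, Cd79b rose by 0.57 ± 0.13 and Blnk fell by 0.47 ± 0.09. Their mean level was 6.72 to 6.90 in sham and 7.33 to 7.48 after injury.

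For cells other than leukocytes few markers were called. Of 8 oligodendrocyte genes 1 rose (Mag, 0.41) and 1 fell (Cnp, -0.60), of 4 precursor genes 0 were called on the deposited values (0 at limma's unadjusted p below 0.05) and 1 rose after cyclic loess, and of 9 pericyte genes 1 fell (Tagln, -0.82). Of 10 astrocyte genes 1, Slc1a3, was called, with a rise of at least 0.48 (fitted 0.61) that did not pass without injured replicate 1 or 3 or sham replicate 1 or 3 (0.47 to 0.61). Of 9 neuronal genes 1 rose (Eno2, 0.62; 0.40 and adjusted p = 0.0545 without injured replicate 2), of 6 endothelial genes 3 fell (Pecam1, -0.81, Cdh5, -0.57, and Tek, -0.38, the last lost after cyclic loess), and of 4 ependymal and choroid plexus genes 1 fell (Enpp2, -0.59). The counts for these lists moved by 1 or 2 genes when single arrays were left out. The mean levels of the oligodendrocyte, astrocyte and neuron lists were 5.26 to 5.53, 4.70 to 4.92 and 4.80 to 4.97 in sham and 5.27 to 5.49, 4.76 to 4.80 and 4.88 to 5.00 after injury. For endothelial genes they were 6.07 to 6.39 and 5.94 to 5.99. Their part in the changes above was not tested.

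The opposite hemisphere of the same animals shares the code number of the injured hemisphere, so that number does not differ within the hemisphere comparison. Between the hemispheres 1537 genes (13.2%) were higher and 828 (7.09%) lower in the injured one. With the animal as a block on these 6 arrays, 995 were higher and 367 lower, and the sample codes tie the hemispheres to animals. Between the opposite hemisphere and sham 1212 genes (10.4%) were higher and 3310 (28.4%) lower. After cyclic loess 1349 (11.6%) were higher and 1003 (8.59%) lower between hemispheres, and 1074 (9.2%) higher and 1620 (13.9%) lower between the opposite hemisphere and sham. These comparisons share arrays with each other and with the main one, so values are given side by side and no overlap is drawn.

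For several of the largest rises most of the difference from sham lay between the hemispheres. Lgals3 differed by 3.71 ± 0.23 between hemispheres and by 0.25 ± 0.23 between the opposite hemisphere and sham (adjusted p = 0.406). Spp1 gave 3.57 and 0.19, Serping1 3.51 and 0.12, and Igf1 2.66 and -0.06. After cyclic loess the opposite hemisphere minus sham was 0.55 for Lgals3 (adjusted p = 0.0839), 0.47 for Spp1 and 0.23 for Igf1, and none of these was called. Gpnmb was an exception, with 3.40 ± 0.21 between hemispheres and 1.48 ± 0.21 between the opposite hemisphere and sham (adjusted p = 7.78e-06); Axl gave 3.07 and 0.84, and Cd34 2.72 and 0.74, and both of these rises in the opposite hemisphere passed the test.

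Several genes that fell were also lower in the opposite hemisphere than in sham. P2ry14 differed by -1.14 ± 0.15 between hemispheres and by -0.88 ± 0.15 between the opposite hemisphere and sham. Fam72a gave -1.16 and -1.44, 1700001K19Rikl -1.0 and -1.0, and Cyp51 -0.81 and -0.66 (the latter -0.39 after cyclic loess, adjusted p = 0.0255). Tmem119, by contrast, gave -1.36 ± 0.18 and 0.19 ± 0.18 (adjusted p = 0.414), and the latter was 0.49 after cyclic loess (adjusted p = 0.027). Of 26 homeostatic genes 16 were lower in the injured than in the opposite hemisphere, and 11 were lower in the opposite hemisphere than in sham. After cyclic loess the first count was 20, while in the opposite hemisphere 1 was lower and 2 higher than in sham. Of 23 sterol and fatty acid genes 8 and 10 were lower, and after cyclic loess 9 and 7.

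For the interferon list the 2 parts had opposite signs. Of its 35 genes 20 were higher and 0 lower in the injured than in the opposite hemisphere, with a median of 0.43, and 0 were higher and 22 lower in the opposite hemisphere than in sham, with a median of -0.40. Mx1 gave 2.25 ± 0.21 and -1.15 ± 0.21, both past the threshold, and Irf7 1.32 and -0.40. The oxidative phosphorylation list gave 26 higher and 0 lower of 31 between hemispheres (median 0.51), and 0 higher and 20 lower between the opposite hemisphere and sham (median -0.38). Ribosomal protein genes gave 34 and 0 of 35 (median 0.54), and 0 and 12 (median -0.15). At limma's unadjusted p below 0.05 these counts of 0 stayed at 0, except that 2 ribosomal protein genes were higher in the opposite hemisphere than in sham. After cyclic loess the opposite hemisphere against sham gave 0 higher (2 at an unadjusted p below 0.05) and 12 lower for the interferon list (median -0.27) and 2 and 9 for oxidative phosphorylation (-0.09). The ribosomal protein list turned to 12 higher and 0 lower (0.13). Between hemispheres all 3 lists kept 0 lower after cyclic loess, with 17, 21 and 20 higher in that order. Aif1, the calcium-binding protein Iba1, differed by 0.04 between hemispheres (adjusted p = 0.776) and by -0.47 between the opposite hemisphere and sham (-0.14, adjusted p = 0.139, and -0.18, adjusted p = 0.0397, after cyclic loess).

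**Figure D4:**
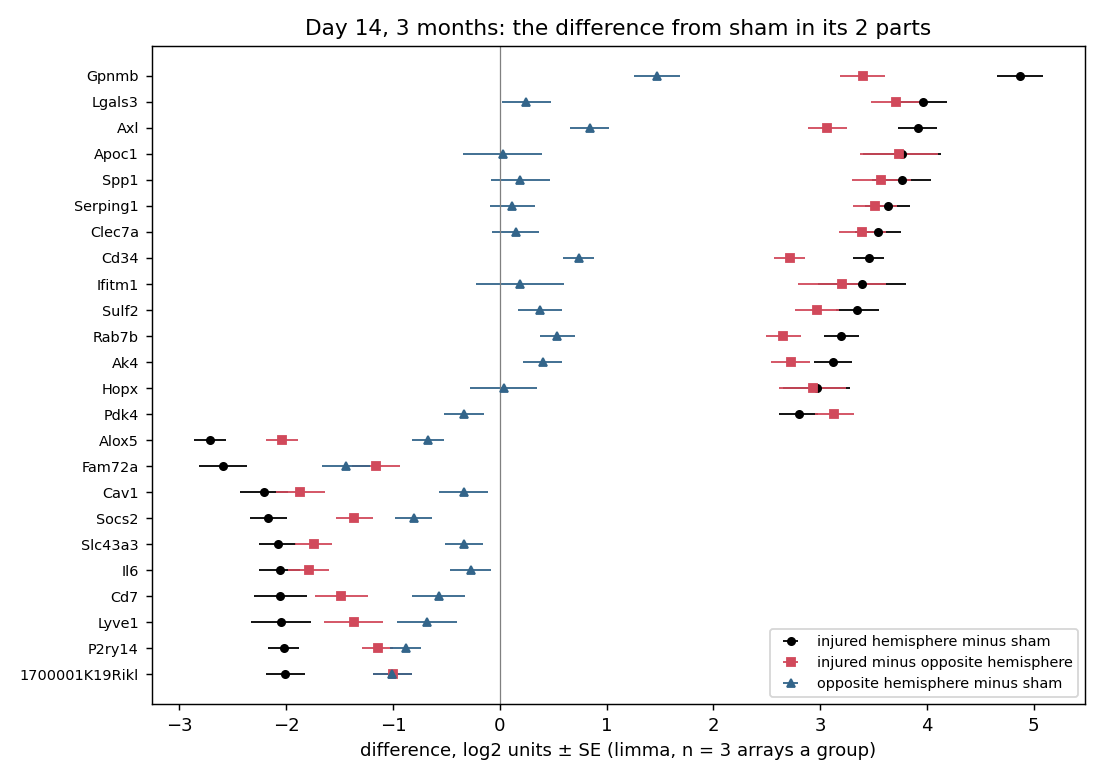
For the 14 largest rises and 10 largest falls, the injured minus sham difference (circles) and its 2 parts, injured minus opposite hemisphere (squares) and opposite hemisphere minus sham (triangles), in log2 units ± SE. Triangles lie near 0 for most rises (Lgals3, 0.25) but not for Gpnmb (1.48), and lie below 0 for the falls, as far as -1.44 for Fam72a.

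Day 14 was set against day 3 in the injured hemisphere; these arrays, too, differ in the code number. Higher at day 14 were 2574 genes (22%) and lower 877 (7.51%), and after cyclic loess 1426 (12.2%) and 1123 (9.62%). Serping1 was 4.52 at day 3 and 7.74 at day 14 (means), a difference of 3.22 ± 0.21. C3 rose by 2.40 between the days, from 8.77, which lay below the sham mean. Lag3, an inhibitory receptor, rose by 2.35, Ak4 by 2.19 and Axl by 1.97.

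Among the genes lower at day 14, S100a8 and S100a9 differed by -3.17 and -3.06 between the days, Slpi, a protease inhibitor, by -2.96, Mrc1 by -2.60 and Acod1, which makes itaconate, by -2.54. Against sham, the day 14 differences of Slpi, Mrc1 and Acod1 were -0.44, 0.12 and -0.15, and none of these 3 was called. The border macrophage list gave 0 higher (1 at limma's unadjusted p below 0.05) and 8 lower of 9 at day 14 (median -2.06) and the monocyte list 1 and 13 of 16 (median -1.01), and the cell cycle list 2 and 17 of 27 (median -0.69). Members dim on all 6 sham and injured day 14 arrays passed the filter through other arrays; without them the cell cycle list gave 2 and 12 of 21 (median -0.58), and the border macrophage list, without F13a1, 0 and 7 of 8. Spp1 was also lower than at day 3, by 1.35 ± 0.28, while Gpnmb differed by 0.20 ± 0.21 (adjusted p = 0.513) and Lgals3 by 0.03 ± 0.23 (adjusted p = 0.928).

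At 12 months sham and stroke arrays share 1 code number, and no array is shared with the 3-month comparison. There 1395 genes (11.9%) were higher and 944 (8.09%) lower at day 14. Genes higher at both ages numbered 714, which is 55.48% of the 3-month and 51.18% of the 12-month calls, and genes lower at both ages 702, which is 25.72% and 74.36%. After cyclic loess the shared higher genes were 866, or 51% and 63.3%, and the shared lower genes 758, or 37.82% and 67.2%. Called at both ages in opposite directions were 86 genes, and 43 after cyclic loess. Of 141 genes at least 2-fold higher at 3 months and called on both scales, 133 were called higher at 12 months, and of 123 at least 2-fold lower, 110 were called lower. Gpnmb changed by 4.55 at 12 months, Axl by 4.28, Alox5 by -2.40 and Il6 by -1.98.

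The difference between the ages was tested directly. The signed difference (change at 3 months minus change at 12 months) was positive for 222 genes (1.9%) and negative for 1222 (10.5%) on the deposited values, and for 286 (2.45%) and 416 (3.56%) after cyclic loess. Serping1 rose by 3.63 at 3 months and by 0.94 at 12 months, a difference of 2.69 ± 0.29 (adjusted p = 5.52e-06). Prp15, a proline-rich protein gene, changed by 1.92 and 0.12; its level was 8.23 in the injured and 8.25 in the opposite hemisphere at 3 months, with a difference of -0.02 (adjusted p = 0.968). Pdk4 rose by 2.80 and 4.46, from a sham mean of 6.92 at 3 months and 4.97 at 12 months, to 9.71 and 9.43.

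Ezh2, a histone methyltransferase, fell by 0.55 at 3 months and rose by 0.96 at 12 months, with injured means of 6.59 and 6.58 and sham means of 7.14 and 5.62. Mx1 rose by 1.10 and 2.17 and Slfn4, an interferon-induced gene of myeloid cells, by 1.68 and 3.09. In the interferon list 19 of 35 rose and 1 fell at 12 months, against 7 and 7 at 3 months, and the age difference was negative for 7 members on the deposited values and 3 after cyclic loess. In the oxidative phosphorylation list 24 of 31 rose and 0 fell at 12 months (0 at limma's unadjusted p below 0.05), and the age difference was negative for 9 members on the deposited values and 1 after cyclic loess. For 0 of 26 homeostatic genes was the age difference called on the deposited values, by limma's adjusted p (for 5, all negative, at an unadjusted p below 0.05), and for 1, higher at 3 months, after cyclic loess.

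**Figure D5:**
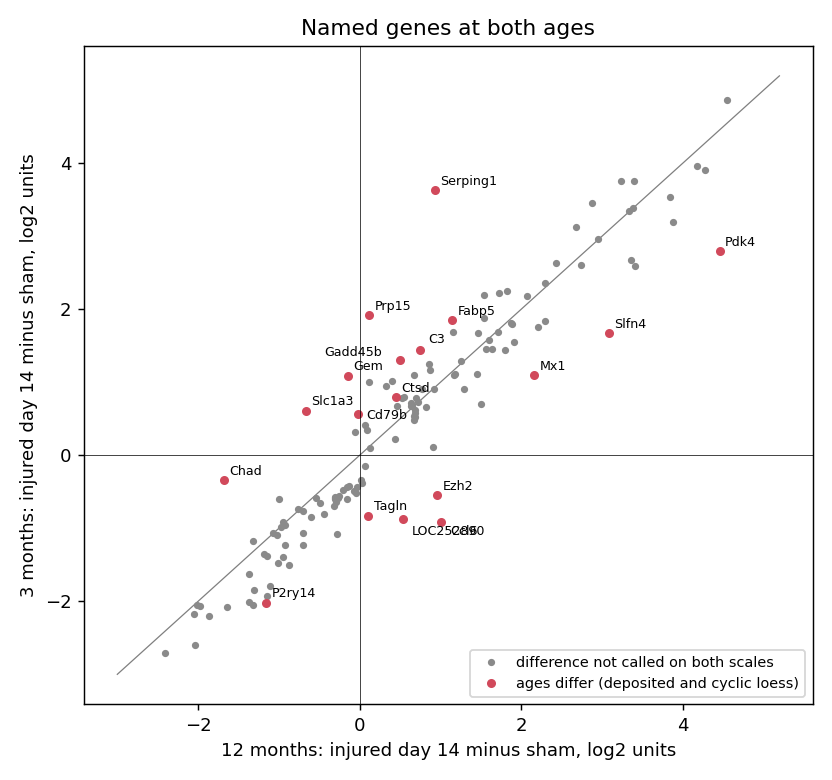
Change at 3 months (y axis) against change at 12 months (x axis), injured day 14 minus sham in log2 units, for 138 named genes; the grey line marks equal change. The 18 red, labelled genes differ between the ages on both scales, with Serping1 (3.63 and 0.94) and Prp15 (1.92 and 0.12) far above the line and Pdk4 (2.80 and 4.46) and Slfn4 (1.68 and 3.09) below it.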

How the data were processed

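The authors deposited log2 expression values of 29214 probe sets on 30 Affymetrix Rat Gene 1.0 ST arrays, made with Affymetrix Expression Console and RMA, per the submitters' processing notes (no versions); 50 ng of RNA per sample was amplified, per the labels' protocols. Probe sets were named through GEO's platform annotation, with symbols updated to RefSeq GRCr8: 15310 had 1 symbol, 323 several and 13581 none. Probe sets above the 30th percentile of their array on at least 3 arrays were kept, and the brightest probe set stood for each gene, giving 11675 genes. Group means over all 30 arrays were fitted with limma 3.58.1 (lmFit, eBayes; 20 residual and 8.80 prior degrees of freedom) in R 4.3.3, with Benjamini-Hochberg adjustment at 0.05 over all genes; the script was tested on simulated data. Where all sham arrays lay at or below the percentile, a change is given as "at least", from the percentile. The number of arrays limits the precision.

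Alternatives were cyclic loess, quantile normalization, other filters, all kept probe sets, other sets of arrays, blocks and leaving out each array. Named genes were the 14 largest rises and 10 largest falls called on both scales without overlap, up to 4 called members of each of 35 lists, a preset group, the largest differences from 12 months and from day 3, and markers; others were named after their values were seen. Members and lists were chosen with earlier results of these data known. The codes tie the hemispheres, not sham and injured arrays; duplicateCorrelation over hemispheres was 0.072.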

Additional observations from a re-analysis of the deposited data

Results flagged for a closer look

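The change against sham differed between the ages (3 months minus 12 months, log2 units, limma's test of the difference on both scales) for 18 named genes. The signed difference was positive for Serping1 (2.69), Prp15 (1.8), Chad (1.34), Slc1a3 (1.27), Gem (1.23), Gadd45b (0.81), Fabp5 (0.70), C3 (0.69), Cd79b (0.59) and Ctsd (0.35). It was negative for Ccl6 (-1.93), Pdk4 (-1.66), Ezh2 (-1.51), Slfn4 (-1.41), LOC252890 (-1.41), Mx1 (-1.07), Tagln (-0.93) and P2ry14 (-0.86). A negative value does not mean a smaller change: P2ry14 fell at both ages, by 2.02 at 3 months and by 1.16 at 12 months, and Ezh2 fell at 3 months and rose at 12 months. Several of these genes are immune effectors: C3 and Serping1 belong to complement, Ccl6 is a chemokine, and Mx1 and Slfn4 are interferon-induced. For Slc1a3 all 3 sham arrays of 3-month rats were dim and for Serping1 2 of 3, so these values are near the floor of the arrays. At 3 months sham and day 14 arrays differ in the code number, so there code number and treatment cannot be told apart; at 12 months they share 1 code number.

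Between day 14 and day 3 in the injured hemisphere at 3 months, 10 named genes were selected for the size of their difference. Serping1 (3.22), C3 (2.40), Lag3 (2.35), Ak4 (2.19) and Axl (1.97) were higher at day 14. S100a8 (-3.17), S100a9 (-3.06), Slpi (-2.96), Mrc1 (-2.60) and Acod1 (-2.54) were lower. Each was called in the same direction after cyclic loess.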

How the results depend on the processing

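Of 132 called genes picked by the naming rule, 115 kept the call in the same direction under every setting in which they were tested. Genes left out by the stricter filter, which kept 8848 genes, were not judged under it. The rest of the 132 are named in the report, whereas further list members that lost a call are named only in part. Pdia3 (-0.30, limma's adjusted p = 0.0509) missed the threshold after cyclic loess over the 6 arrays alone. Cd163, not called, ranged from -0.0032 (without injured replicate 2) to 0.2293 (without injured replicate 1). With all kept probe sets as features, 2788 were higher and 4631 lower (3 months), 1514 lower (12 months), 789 and 2042 (difference between ages), 1771 lower at day 14 than at day 3, and 2355 and 1359 between hemispheres; more features were tested there. Cyclic loess over the 6 arrays alone, chosen after seeing the data, gave 1799 lower. The difference between ages gave 416 lower after cyclic loess and 301 after quantile normalization, and the day comparison 1426 higher after cyclic loess. Fits to the compared arrays alone gave 575 lower (days) and 365 lower (hemispheres), and to 3-month arrays 545 lower (hemispheres), with fewer arrays. Replicate numbers do not pair sham with injured arrays; the replicate block gave 1289 higher and 2602 lower there. Between hemispheres, where they pair animals, the replicate block gave 995 and 367, against 1047 and 365 on the same arrays without it. Leaving out 1 array gave 991 to 1237 higher and 2237 to 2740 lower (3 months), 1044 to 1332 and 683 to 943 (12 months), 1840 to 2519 and 601 to 910 (days), 1153 to 1428 and 585 to 846 (hemispheres), and 115 to 264 and 831 to 1366 (ages). For the ages, higher calls fell from 222 to 140 and 126 without 12-month injured replicates 1 and 3, 137 and 117 without 12-month sham replicates 1 and 2, 118 without 3-month injured replicate 2 and 115 without 3-month sham replicate 1. The cause of these shifts was not tested.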
